A study of Mus musculus with 12 samples.

Results

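Collagen chain genes were taken as every protein-coding gene of the count table whose symbol is Col, a number, the letter a and a number. The rule found 44 genes among the 46517 of the table. Of these, 29 had enough counts to be tested, and the other 15 had at most 20 counts each over all libraries. The chains were read in bulk RNA-seq of resident macrophages that were sorted from the aorta or from fat of adult wild type C57/BL6 mice and divided by LYVE-1, a hyaluronan receptor of the cell surface. The 4 groups, of 3 libraries each, were aorta LYVE1+, aorta LYVE1-, fat LYVE1+ and fat LYVE1- macrophages. All cells came from a gate of DAPI-negative, CD45+, CD64+, MerTK+, CD11b+ and F4/80+ cells, so every group had passed a macrophage sort. The design text gives 30 mice for the aorta, and 20 for epididymal and subcutaneous fat, which were not kept apart in the labels. Whether the libraries of a group were made from different pools of mice is not stated, so the p-values measure the spread between libraries, which may be technical.

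Collagens are matrix proteins built of chains wound into a helix. Fibrillar types I, III and V form the cable-like fibrils of connective tissue, fibril-associated types such as XII, XIV and XVI sit on those fibrils, type VI forms beaded filaments, and type IV forms the network of basement membranes. In vessel walls and in fat the main producers are fibroblasts, smooth muscle cells, pericytes, endothelial cells and adipocytes, while macrophages are better known for taking up and degrading collagen. In bulk libraries, fewer cells of a type and less RNA per cell cannot be told apart.

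Libraries held between 5049936 and 29792301 counts assigned to genes. The 7 macrophage markers summed to between 9754 and 23705 CPM per library (counts scaled to a common library size with factors of the trimmed mean of M values, TMM), and none was at 0 in any group. The sums were 21992 to 23705 CPM in aorta LYVE1+ against 14607 to 20393 CPM in aorta LYVE1- libraries. In fat they were 14314 to 21607 CPM in LYVE1+ against 9754 to 17749 CPM in LYVE1- libraries. All 7 markers had a positive log2 fold change in both sorts (medians 0.33 in aorta and 0.52 in fat), with none called. Lyve1 had a median of 2744 CPM in aorta LYVE1+ against 877 CPM in aorta LYVE1- libraries, and of 2095 CPM in fat LYVE1+ against 570 CPM in fat LYVE1- libraries, with no overlap within either tissue. Fat LYVE1+ library 1 and fat LYVE1- library 1 stood apart from the rest: 8.85% and 12.1% of their counts were mitochondrial, against 1.79% to 3.2% in the other 10, and their erythroid markers summed to 25124 and 5211 CPM. Counts below are therefore also given without this pair.

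Collagen transcripts were a small share of every library, between 0.0421% and 0.256% of the counts, and fibrillar chains made up 75.6% to 90.5% of that share. The summed level of the 11 fibrillar chains was 770, 2186 and 1063 CPM in aorta LYVE1+ libraries, 1162, 2139 and 1578 CPM in aorta LYVE1- libraries, 507, 384 and 401 CPM in fat LYVE1+ libraries and 847, 478 and 444 CPM in fat LYVE1- libraries. LYVE1+ and LYVE1- libraries overlapped in both tissues on this sum. In fat the LYVE1+ library was below the LYVE1- library of the same number in 3 of 3 cases, though a pairing by number was not established. The same held in fat for the fibril-associated, basement membrane and beaded filament sums, with no test made of any sum. On the fibrillar sum, every aorta library also lay above every fat library within each LYVE1 sort. The 9 basement membrane chains summed to 34.1 to 84.9 CPM in aorta LYVE1+ cells, 70.5 to 93.9 CPM in aorta LYVE1- cells, 15.2 to 47.8 CPM in fat LYVE1+ and 29.2 to 131.7 CPM in fat LYVE1- libraries. The 9 fibril-associated chains summed to 34.0 to 72.1 CPM in aorta LYVE1+ and 66.0 to 95.3 CPM in aorta LYVE1- libraries, against 6.95 to 14.6 CPM in fat LYVE1+ and 15.9 to 38.8 CPM in fat LYVE1- libraries. The 6 beaded filament chains ranged from 16.8 to 117.6 CPM over all libraries, and short chain and transmembrane collagens stayed below 3 CPM in each.

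Per kilobase of exon, summed over all annotated gene models, Col1a1 and Col3a1 led in every group. The summed lengths were 6563 bases for Col1a1, 9816 for Col3a1 and 12426 for Col1a2. Which models were in use was not measured, so ranks and ratios between chains depend on these lengths. In the aorta Col1a1, a type I chain, lay at 46.6 to 147 RPKM (CPM divided by kilobases of exon) in LYVE1+ libraries and at 68.5 to 137 RPKM in LYVE1- libraries. Col3a1, the only chain of type III, lay there at 29.9 to 69.5 RPKM in LYVE1+ and 41.5 to 73.3 RPKM in LYVE1- libraries. In fat the order of this pair was not fixed, with Col1a1 at 19.0 to 20.5 RPKM and Col3a1 at 17.5 to 26.0 RPKM in LYVE1+ libraries, and Col1a1 at 21.7 to 34.8 RPKM and Col3a1 at 20.5 to 42.2 RPKM in LYVE1- libraries. Col1a2, the other chain of type I, came next in the aorta at 12.3 to 40.2 RPKM in LYVE1+ libraries. All 15 untested chains were near or at 0, among them Col2a1, the cartilage collagen, with 4 counts in 1 library, and Col10a1, with 20 counts in all. No count was assigned to Col9a1, Col13a1, Col25a1, Col26a1 or Col28a1, and 3 counts over all libraries would be 0.0184 CPM.

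Promoters are shown for Col1a2 and Col6a2, which were called between groups, and for Col4a1, which shares part of its promoter with Col4a2. They are RefSeq windows of 300 bases on GRCm38.p6, from 250 bases before the start of the gene to 50 after it, and 35 of the 44 chains had such a window. The other called chains, Col1a1, Col14a1 and Col4a3, had none. The start is RefSeq's: for Col6a2 and Col4a1 it is that of the GENCODE gene, while for Col1a2 it lies 804 bases inside the GENCODE gene, whose first model begins upstream. In the Col1a2 and Col6a2 windows capitals mark matches on either strand to short motifs that occur in many promoters, the CCAAT box, the GC box (GGGCGG) and the TATA box. In the Col4a1 window they mark the 78 bases that it shares with the window of Col4a2, which is read in the opposite direction.
Col1a2 (chr6:4505368-4505667, plus strand): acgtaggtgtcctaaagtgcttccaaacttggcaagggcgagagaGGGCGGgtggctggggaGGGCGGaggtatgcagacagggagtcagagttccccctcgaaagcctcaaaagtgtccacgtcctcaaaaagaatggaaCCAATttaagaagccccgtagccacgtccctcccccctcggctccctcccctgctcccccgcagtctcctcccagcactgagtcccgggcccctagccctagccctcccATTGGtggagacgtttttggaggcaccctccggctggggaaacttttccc
Col6a2 (chr10:76623581-76623880, minus strand): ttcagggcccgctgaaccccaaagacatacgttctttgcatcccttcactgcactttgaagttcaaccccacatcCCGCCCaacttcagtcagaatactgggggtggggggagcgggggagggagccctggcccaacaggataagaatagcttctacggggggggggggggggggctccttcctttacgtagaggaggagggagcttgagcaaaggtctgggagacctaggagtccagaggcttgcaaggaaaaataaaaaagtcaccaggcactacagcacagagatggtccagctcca
Col4a1 (chr8:11312777-11313076, minus strand): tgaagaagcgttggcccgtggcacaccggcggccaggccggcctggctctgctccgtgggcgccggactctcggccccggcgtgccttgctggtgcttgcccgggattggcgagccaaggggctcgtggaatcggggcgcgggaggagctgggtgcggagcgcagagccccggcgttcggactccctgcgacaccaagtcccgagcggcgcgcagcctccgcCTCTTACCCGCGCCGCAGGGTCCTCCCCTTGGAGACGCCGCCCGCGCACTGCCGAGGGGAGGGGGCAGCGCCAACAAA
The Col1a2 window held 2 matches to CCAAT and 2 to GGGCGG, and the Col6a2 window held none to CCAAT and 1 to GGGCGG. For the TATA box the letters searched were TATAAA, and they were not found in any of the 3 windows. Among all 32851 windows, 37.4% held CCAAT on either strand. The GC box letters GGGCGG were held by 35.7% of them on either strand. The share with TATAAA on either strand was 13.6%. Among the 38 windows of collagen chains, 34.2% held CCAAT, 60.5% held the GC box and 13.2% held the TATA box. The matches describe the letters only, and no binding was measured.

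In the aorta no collagen chain differed between LYVE1+ and LYVE1- macrophages by edgeR's quasi-likelihood test with Benjamini-Hochberg adjustment over all 14216 tested genes (adjusted p below 0.05). At an unadjusted p below 0.05 there was 1 chain, and DESeq2 also called 0. Over all tested genes 0.542% were called, 0.113% as higher and 0.429% as lower. Of the 29 tested chains, 25 had a negative and 4 a positive log2 fold change, with a median of -0.52 against -0.01 over all genes. The chain with the small unadjusted p was Col20a1, a fibril-associated collagen, which had 0.401, 0.301 and 1.92 CPM in aorta LYVE1+ against 2.61, 2.51 and 4.74 CPM in aorta LYVE1- libraries, a log2 fold change of -1.91 ± 0.72 (SE, n = 3 libraries each, edgeR adjusted p = 0.325). Its exons share 79 bases with BX649560.1 on the same strand, so its reads cannot be fully assigned. In 5 chains every LYVE1+ library lay below every LYVE1- library (Col20a1, Col9a3, Col4a5, Col23a1 and Col8a1) and in 0 above, where 11.3% and 11.1% of all tested genes did so. None of the 5 was called, and the prefix of the library identifiers also differed largely between these groups, as set out below.

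Type I and III chains overlapped in the aorta sort. Col1a1 had 306, 962 and 448 CPM in aorta LYVE1+ libraries against 449, 900 and 615 CPM in aorta LYVE1- libraries (log2 fold change -0.20 ± 0.36, edgeR adjusted p = 0.888). Col3a1 had 294, 682 and 366 CPM in aorta LYVE1+ libraries against 407, 719 and 549 CPM in aorta LYVE1- libraries (log2 fold change -0.32 ± 0.34, edgeR adjusted p = 0.778). Library 2 of each group was the highest for Col1a1, Col1a2 and Col3a1, and the groups overlapped on each. Col14a1, a fibril-associated collagen, had 28.2, 59.0 and 37.4 CPM in aorta LYVE1+ libraries and 85.2, 54.9 and 64.5 CPM in aorta LYVE1- libraries (log2 fold change -0.72 ± 0.37, edgeR adjusted p = 0.508).

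In fat, Col14a1 and Col6a2 were lower in the LYVE1+ macrophages, and no chain was higher there. Col14a1 had 2.50, 3.81 and 3.02 CPM in fat LYVE1+ libraries, against 14.3, 33.6 and 10.1 CPM in fat LYVE1- libraries. The highest LYVE1+ library lay well under the lowest LYVE1- library, and the log2 fold change was -2.60 ± 0.45 (SE, n = 3 libraries each), or 6.07-fold lower, with an edgeR adjusted p of 0.00566. Col6a2, a chain of beaded filament collagen VI, had 7.49, 3.73 and 4.94 CPM in fat LYVE1+ libraries against 37.5, 16.3 and 8.16 CPM in fat LYVE1- libraries, a log2 fold change of -1.97 ± 0.50 (edgeR adjusted p = 0.0483). Its groups did not overlap either, but the lowest LYVE1- library stood close to the highest LYVE1+ one. Of all tested genes, 3.93% were called in this comparison, 1.82% as higher and 2.1% as lower. Of the 29 chains, 24 had a negative log2 fold change, with a median of -0.80 against 0.00 over all genes. In 6 chains every LYVE1+ library lay below every LYVE1- library (Col1a1, Col6a2, Col14a1, Col7a1, Col6a6 and Col27a1) and in 0 above, against 9.83% and 9.12% of all genes.

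The call on Col14a1 was made under every alternative fit and without any 1 of the 12 libraries, with an adjusted p of at most 0.0462. Its log2 fold change was -1.93 without fat LYVE1- library 2, the library with the highest value. The call on Col6a2 was lost in 9 of the 12 fits without 1 library, where its adjusted p lay between 0.0596 and 0.214. It ended without fat LYVE1+ library 2 (adjusted p = 0.214) or 3 (0.184), without fat LYVE1- library 1 (0.194, at a log2 fold change of -1.22) or 2 (0.0686), without aorta LYVE1+ library 1 (0.0596) or 3 (0.0617), and without aorta LYVE1- library 1 (0.0699), 2 (0.0712) or 3 (0.0711). Without both fat libraries numbered 1 Col14a1 had a log2 fold change of -2.66 (edgeR adjusted p = 0.00914), and Col6a2 one of -1.50 (0.0701).

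The other type VI chains did not follow Col6a2 past the threshold in fat. Col6a1 had 42.8, 15.9 and 9.78 CPM in fat LYVE1+ libraries against 48.8, 27.9 and 12.8 CPM in fat LYVE1- libraries (log2 fold change -0.41 ± 0.62, edgeR adjusted p = 0.815). Per kilobase, Col6a1 stood at 3.76 to 10.9 times Col6a2 in fat LYVE1+ libraries, against 2.47 to 3.25 times in fat LYVE1- libraries. In the aorta this ratio was 1.31 to 2.62 in LYVE1+ and 1.97 to 3.92 in LYVE1- libraries. The ratios are descriptions of levels within a library and were not tested.

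Among basement membrane chains in fat, Col4a1 had 26.7, 6.67 and 7.46 CPM in LYVE1+ libraries, against 76.0, 25.2 and 17.8 CPM in LYVE1- libraries. Library 1 was the highest of each group, and within each number the LYVE1+ library was the lower. The log2 fold change was -1.59 ± 0.61 with an edgeR adjusted p of 0.209 in the unpaired fit. With the replicate number as a block, a pairing that was not established, Col4a1 was called lower (edgeR adjusted p = 0.0141). It was also called without fat LYVE1+ library 1 (0.0242) and without both fat libraries numbered 1 (0.0425). Without fat LYVE1- library 1 alone the log2 fold change was -0.71 (edgeR adjusted p = 0.633), and it lay between -2.48 and -0.71 over the 12 fits without 1 library. Its partner Col4a2, which joins Col4a1 in the common form of collagen IV, had 14.0, 5.20 and 8.97 CPM in fat LYVE1+ libraries against 28.7, 9.62 and 7.96 CPM in fat LYVE1- libraries, which overlapped (log2 fold change -0.73 ± 0.49, edgeR adjusted p = 0.536). Per kilobase, Col4a1 stood at 0.737 to 1.69 times Col4a2 in fat LYVE1+ libraries and at 1.98 to 2.35 times in fat LYVE1- libraries. The exons of this pair share 22 bases on opposite strands.

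The LYVE1 difference itself was not shown to depend on the tissue. No chain was called for the difference between aorta and fat in the log2 fold change of LYVE1+ over LYVE1-, where 0.155% of all genes were (0.148% with a positive and 0.00703% with a negative difference). Col14a1 came nearest by p, with a difference of 1.89 ± 0.58 on the log2 scale (unadjusted p = 0.00617, edgeR adjusted p = 0.469), and Col6a2 had 1.88 ± 0.68 (unadjusted p = 0.0159, edgeR adjusted p = 0.674). These were the 2 chains with an unadjusted p below 0.05. DESeq2 called 0, and edgeR without a filter on low counts called 1 (Col14a1, adjusted p = 0.0251).

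**Figure D1:**
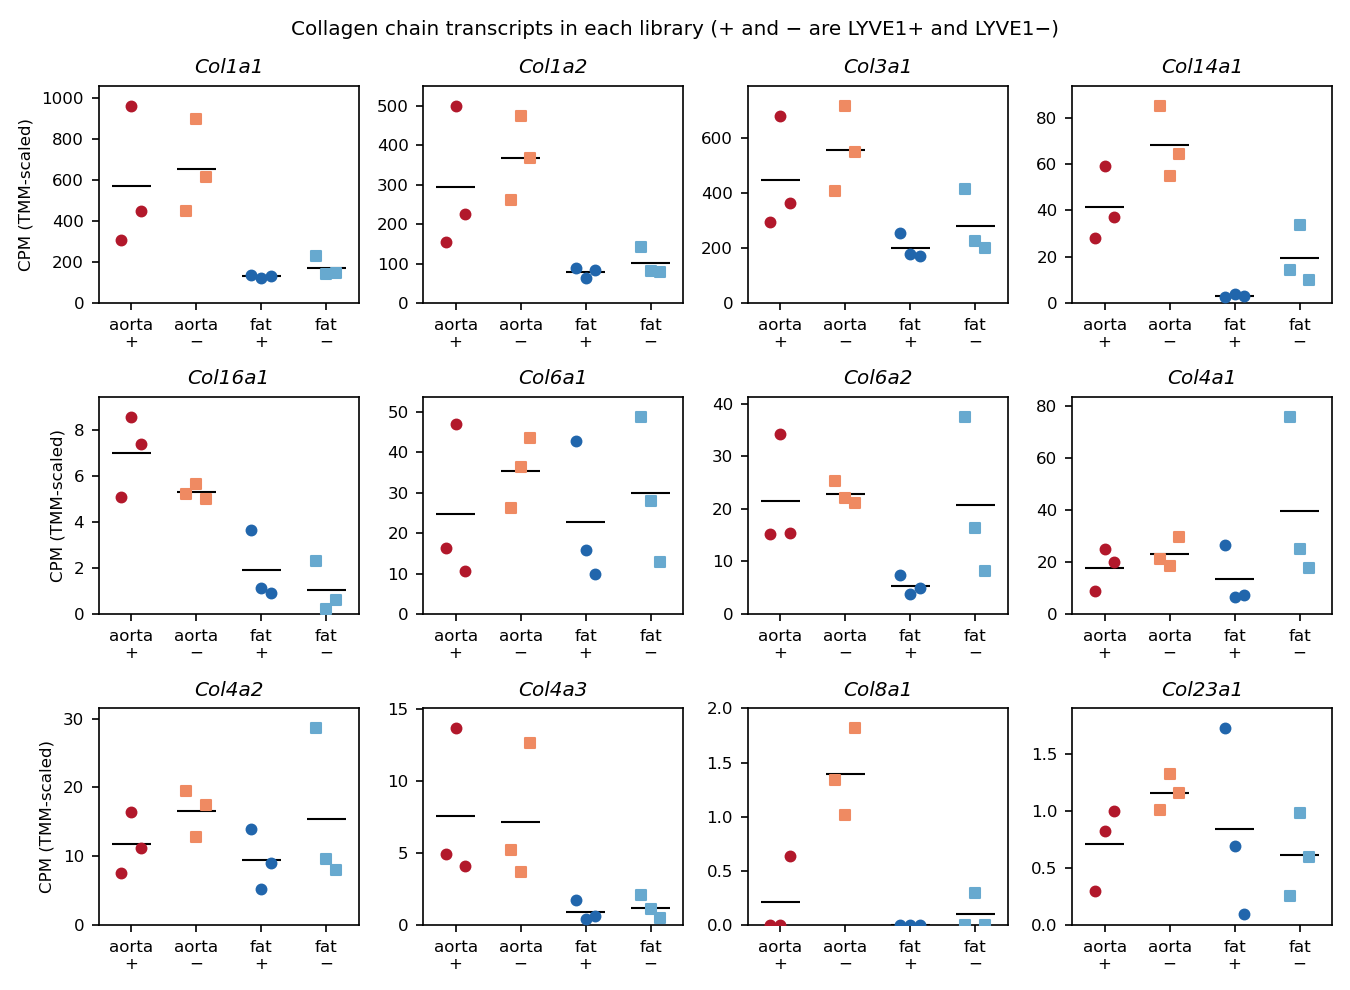
CPM (TMM-scaled, vertical axis, from 0) of the 12 chains given library by library, in aorta LYVE1+, aorta LYVE1-, fat LYVE1+ and fat LYVE1- macrophages from left to right. Points are the 3 libraries of a group in the order of their numbers and the line is their mean. The 3 fat LYVE1+ libraries lie at 2.50 to 3.81 CPM for Col14a1, below all others.

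Between tissues, 5 chains were higher in aorta LYVE1+ than in fat LYVE1+ macrophages and none was lower. Col14a1 differed most among them by fold, at 28.2, 59.0 and 37.4 CPM in aorta LYVE1+ against 2.50, 3.81 and 3.02 CPM in fat LYVE1+ libraries. The lowest aorta library lay far above the highest fat library, and the log2 fold change was 3.70 ± 0.45 (13-fold, edgeR adjusted p = 0.00145). Col1a1 had 306, 962 and 448 CPM in aorta LYVE1+ against 134, 124 and 132 CPM in fat LYVE1+ libraries (log2 fold change 2.14 ± 0.38, edgeR adjusted p = 0.00906). Col1a2 had 153, 500 and 226 CPM in aorta LYVE1+ against 87.9, 62.4 and 84.1 CPM in fat LYVE1+ libraries (log2 fold change 1.91 ± 0.39, edgeR adjusted p = 0.0224). For both type I chains the fat libraries were close together, the aorta libraries were spread widely, and the groups did not overlap.

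Col6a2 and Col4a3 were the other chains called between LYVE1+ groups. Col6a2 had 15.1, 34.1 and 15.4 CPM in aorta LYVE1+ libraries, above the 7.49, 3.73 and 4.94 CPM of fat LYVE1+ libraries (log2 fold change 2.03 ± 0.50, edgeR adjusted p = 0.0475). Col4a3, a chain of the collagen IV network known from kidney, lung and other specialised basement membranes, had 4.91, 13.7 and 4.13 CPM in aorta LYVE1+ against 1.73, 0.433 and 0.605 CPM in fat LYVE1+ libraries (log2 fold change 3.14 ± 0.76, edgeR adjusted p = 0.0448). Its exons share 563 bases with C430014B12Rik on the other strand, and the reads carry no strand. That gene had 100 counts in all against 784 for Col4a3, and at most 1.41 CPM in any library. Over all tested genes 3% were called, 1.88% as higher and 1.12% as lower. Of the 29 chains, 22 had a positive log2 fold change, with a median of 1.53 against -0.02 over all genes. In 11 chains every aorta library lay above every fat library, where 11.3% of all genes did so, and in 1, Col5a3, below, where 9.29% did so.

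Col14a1 and Col1a1 were called in every alternative fit of this comparison. Col4a3 lost its call in 10 of the 12 fits without 1 library (adjusted p up to 0.178), Col6a2 in 9 (up to 0.181) and Col1a2 in 3, which were those without aorta LYVE1+ library 2 (0.0628) and without fat LYVE1+ library 2 (0.092) or 3 (0.0736). Without aorta LYVE1+ library 2, the highest of its group for these chains, the log2 fold changes were 1.54 for Col1a1 (edgeR adjusted p = 0.0237), 1.28 for Col1a2 and 2.39 for Col4a3. Col4a3 had 3.85 without fat LYVE1+ library 1 and without both fat libraries numbered 1. Col4a3 kept its call only without fat LYVE1+ library 1 or fat LYVE1- library 1, and Col6a2 only without these or fat LYVE1- library 3. Without both fat libraries numbered 1, 9 chains were called higher, namely the 5 above with Col3a1, Col15a1, Col16a1 and Col4a5. Calls over all genes went from 426 to 890 in that fit.

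In LYVE1- macrophages 3 chains were higher in the aorta than in fat. Col1a1 had 449, 900 and 615 CPM in aorta LYVE1- against 228, 143 and 144 CPM in fat LYVE1- libraries (log2 fold change 1.93 ± 0.37, edgeR adjusted p = 0.0174). Col1a2 had 260, 474 and 368 CPM in aorta LYVE1- against 143, 81.7 and 79.6 CPM in fat LYVE1- libraries (log2 fold change 1.86 ± 0.39, edgeR adjusted p = 0.0269). Col14a1 had 85.2, 54.9 and 64.5 CPM in aorta LYVE1- against 14.3, 33.6 and 10.1 CPM in fat LYVE1- libraries (log2 fold change 1.81 ± 0.39, edgeR adjusted p = 0.0305). None of these groups overlapped, and the fat LYVE1- values were highest in library 1 for type I and in library 2 for Col14a1. Of all genes 2.48% were called, 1.66% as higher and 0.823% as lower. Of the 29 chains 23 had a positive log2 fold change, with a median of 0.99 against 0.00 over all genes. In 12 chains the aorta libraries all lay above the fat libraries, where 11.2% of all genes did so, and in 2, Col5a3 and Col6a5, below, where 9.9% did so.

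The library identifiers begin with RMM in all fat libraries and in aorta LYVE1+ libraries 1 and 2, and with RHH in all aorta LYVE1- libraries and aorta LYVE1+ library 3. Aorta LYVE1- and fat LYVE1- libraries thus differ in prefix as well as tissue, and within these groups the prefix and the tissue cannot be told apart. The aorta sort is largely confounded with prefix too, and with it the difference between tissues in the LYVE1 fold change. With the prefix as a term, calls over all genes went from 77 to 2 in the aorta sort and from 22 to 0 for that difference. With the prefix as a term, which then rests on the aorta LYVE1+ libraries, no chain was called between LYVE1- groups, and the log2 fold changes were 2.43 for Col1a1 (edgeR adjusted p = 0.542), 2.39 for Col1a2 (0.597) and 2.04 for Col14a1 (0.713). Within prefix RMM, without aorta LYVE1+ library 3, Col14a1, Col1a1 and Col1a2 were called higher in aorta LYVE1+ than in fat LYVE1+ libraries. Single libraries also decided calls between LYVE1- groups. Without aorta LYVE1- library 2 or fat LYVE1- library 3 no chain was called, Col1a1 having an adjusted p of 0.0734 and 0.094, Col1a2 of 0.099 and 0.125, and Col14a1 of 0.0595 and 0.111. Without fat LYVE1- library 2 Col1a1 (0.0882) and Col1a2 (0.121) lost their calls and Col14a1 had a log2 fold change of 2.49, without aorta LYVE1- library 3 Col1a2 (0.072) and Col14a1 (0.0759), and without aorta LYVE1- library 1 (0.112) or fat LYVE1- library 1 (0.0697) Col14a1. Without both fat libraries numbered 1, 9 chains were called, and calls over all genes went from 353 to 1024.

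**Figure D2:**
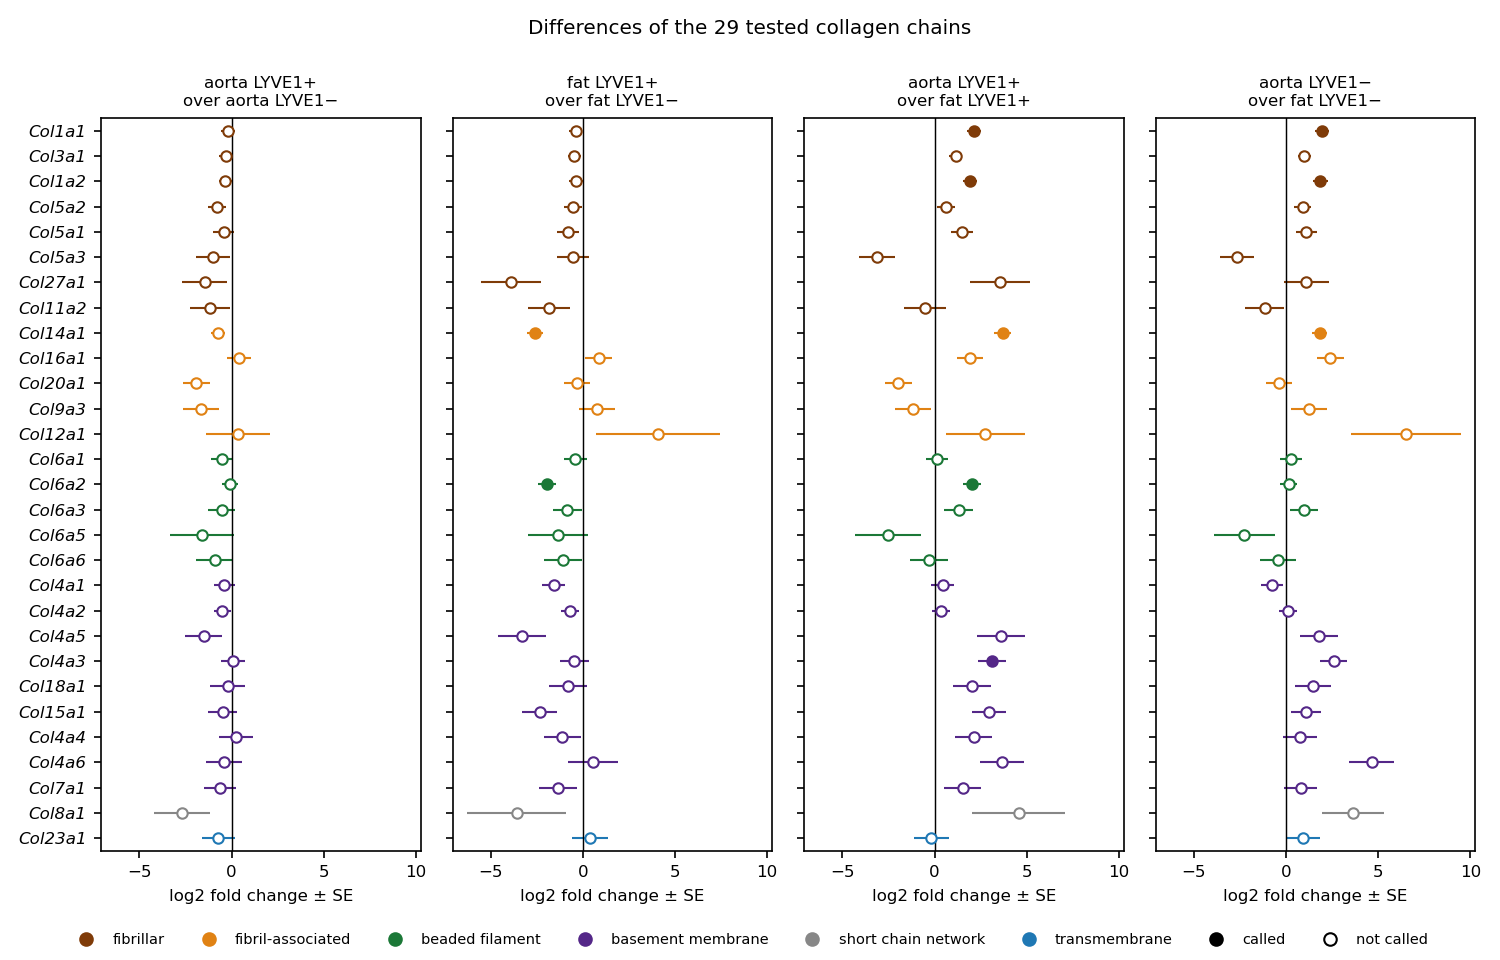
Log2 fold change with its SE (horizontal axis, same in each panel) of the 29 tested chains, ordered by class and abundance, in the 4 comparisons of groups. Filled points passed an adjusted p of 0.05. Filled points lie left of 0 in fat LYVE1+ over fat LYVE1- (Col14a1 and Col6a2) and right of 0 in both comparisons of aorta over fat, and the aorta sort has none. Values of Col12a1 and Col8a1 rest on groups with no count and depend on the fit.

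Col3a1 did not pass the threshold between tissues. It had 294, 682 and 366 CPM in aorta LYVE1+ libraries against 255, 178 and 171 CPM in fat LYVE1+ libraries (log2 fold change 1.15 ± 0.35, edgeR adjusted p = 0.107), and 407, 719 and 549 CPM in aorta LYVE1- libraries against 414, 228 and 202 CPM in fat LYVE1- libraries (0.99 ± 0.34, edgeR adjusted p = 0.171). DESeq2 called both (adjusted p = 0.0134 and 0.0472). Per kilobase, Col1a1 stood at 1.56 to 2.11 times Col3a1 in aorta LYVE1+ and 1.65 to 1.87 times in aorta LYVE1- libraries, against 0.787 to 1.15 times in fat LYVE1+ and 0.825 to 1.07 times in fat LYVE1- libraries. The 6 aorta libraries and the 6 fat libraries did not overlap on this ratio, which was described and not tested. The ratio of Col1a1 to Col1a2 per kilobase, whose products join in collagen I, lay between 2.89 and 3.78 in every library. The size of both ratios depends on the summed exon lengths, which cover all annotated gene models.

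Other chains given in full did not pass the threshold. Col16a1, a fibril-associated collagen, had 5.07, 8.57 and 7.40 CPM in aorta LYVE1+, 5.22, 5.66 and 4.98 CPM in aorta LYVE1-, 3.65, 1.13 and 0.907 CPM in fat LYVE1+ and 2.30, 0.196 and 0.597 CPM in fat LYVE1- libraries, with all aorta libraries above all fat libraries (edgeR adjusted p = 0.19 within LYVE1+ and 0.114 within LYVE1-). Col8a1, a short chain collagen of vessel walls, had counts in 5 libraries, at 0, 0 and 0.640 CPM in aorta LYVE1+, 1.34, 1.02 and 1.82 CPM in aorta LYVE1-, 0 CPM in the 3 fat LYVE1+ and 0, 0.294 and 0 CPM in fat LYVE1- libraries. Only the aorta LYVE1- group had Col8a1 counts in each library, and 3 counts in a library were 0.101 to 0.594 CPM. Col23a1, a transmembrane collagen, stayed between 0.101 and 1.73 CPM. Col5a3, a type V chain, ran the other way between tissues, at 0, 1.73 and 0.711 CPM in aorta LYVE1+ against 9.60, 5.63 and 5.44 CPM in fat LYVE1+ libraries, and at 1.94, 2.37 and 0.425 CPM in aorta LYVE1- against 18.0, 6.08 and 6.47 CPM in fat LYVE1- libraries (log2 fold changes -3.11 and -2.67, edgeR adjusted p = 0.123 and 0.168). DESeq2 called Col5a3 lower in the aorta in both. Of the remaining tested chains, those of the fibrillar class lay between 0 and 27.3 CPM, those of the basement membrane between 0 and 13.5 CPM, those of type VI between 0 and 31.9 CPM and the fibril-associated ones between 0 and 5.76 CPM over the libraries.

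Transcripts used as markers of fibroblasts were present in every group, and the cells they came from were not measured. The 14 fibroblast markers summed to 236, 656 and 284 CPM in aorta LYVE1+, 406, 438 and 562 CPM in aorta LYVE1-, 371, 242 and 317 CPM in fat LYVE1+ and 460, 244 and 237 CPM in fat LYVE1- libraries. All 14 were measured in each group and none was at 0. The order of libraries on this sum followed that of the fibrillar chains in part: aorta LYVE1+ library 2 was the highest of its group on both. No fibroblast marker was called in the aorta sort, and 1 of 14 was lower in the fat sort (Serpinf1, which encodes the secreted protein PEDF, log2 fold change -1.33, edgeR adjusted p = 0.0446). Between LYVE1+ groups 2 were higher and 1 lower in the aorta, and between LYVE1- groups 1 was higher, Mfap4, a microfibril protein (log2 fold change 7.09, edgeR adjusted p = 6.48e-05). Over all tested genes 1.88% were called higher and 1.12% lower between LYVE1+ groups, 1.66% higher between LYVE1- groups and 2.1% lower in the fat sort. By direction, 2 of the 14 markers were positive in the aorta sort (median log2 fold change -0.36) and 3 in the fat sort (median -0.33). For aorta over fat, 10 were positive within LYVE1+ (median 0.66) and 11 within LYVE1- libraries (median 0.80). Dcn, the proteoglycan decorin and the most abundant of the list, was called in none (edgeR adjusted p = 0.579 to 0.999). The part of fibroblast RNA in the collagen results was not tested.

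The fibrillar sum was 3.26, 3.33 and 3.74 times the fibroblast marker sum in aorta LYVE1+ libraries and 2.86, 4.88 and 2.81 times in aorta LYVE1- libraries, against 1.37, 1.59 and 1.27 times in fat LYVE1+ and 1.84, 1.96 and 1.87 times in fat LYVE1- libraries. No aorta library overlapped a fat library on this ratio, and in fat all LYVE1+ libraries lay below all LYVE1- libraries. Single chains need not follow the fibrillar sum, and Col14a1 and Col6a2 per fibroblast marker overlapped between aorta LYVE1- and fat LYVE1- libraries. These are ratios of sums within a library and carry no test.

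**Figure D3:**
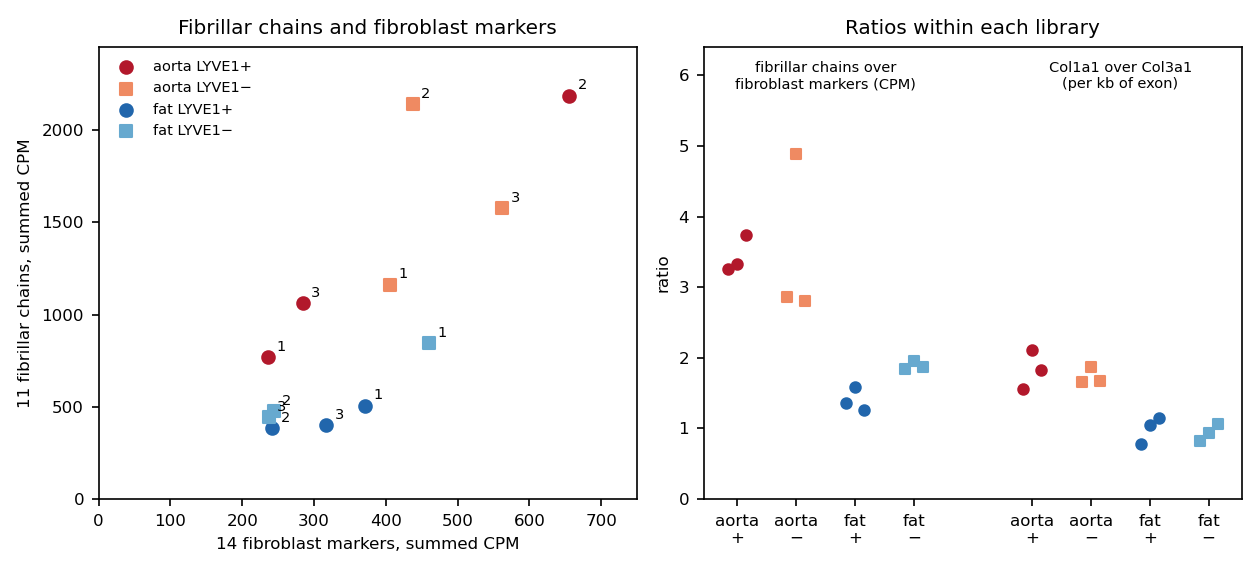
Left, summed CPM of the 14 fibroblast markers (horizontal) and of the 11 fibrillar chains (vertical) in each library, numbered within its group. Right, the fibrillar sum over the fibroblast marker sum and the per-kilobase ratio of Col1a1 to Col3a1, 1 point per library, for aorta LYVE1+, aorta LYVE1-, fat LYVE1+ and fat LYVE1- (+ and − stand for the LYVE1 sort). At a like fibroblast marker sum, the aorta libraries lie above the fat libraries.

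For the chains called in the fat sort, the level was also set against the fibroblast marker sum of the same library. Col14a1 came to 0.672%, 0.954% and 1.57% of the fibroblast marker sum in fat LYVE1+ libraries, against 3.12% to 13.7% in fat LYVE1- libraries, and it was 9.00% to 13.1% in aorta LYVE1+ and 11.5% to 21.0% in aorta LYVE1- libraries. Col6a2 came to 1.54% to 2.02% in fat LYVE1+ against 3.45% to 8.15% in fat LYVE1- libraries, and to 5.20% to 6.41% in aorta LYVE1+ and 3.75% to 6.24% in aorta LYVE1- libraries. On both, the 3 fat LYVE1+ libraries lay below the other 9. These chains were chosen by their call in the same libraries, so the percentages repeat that difference on another scale.

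**Figure D4:**
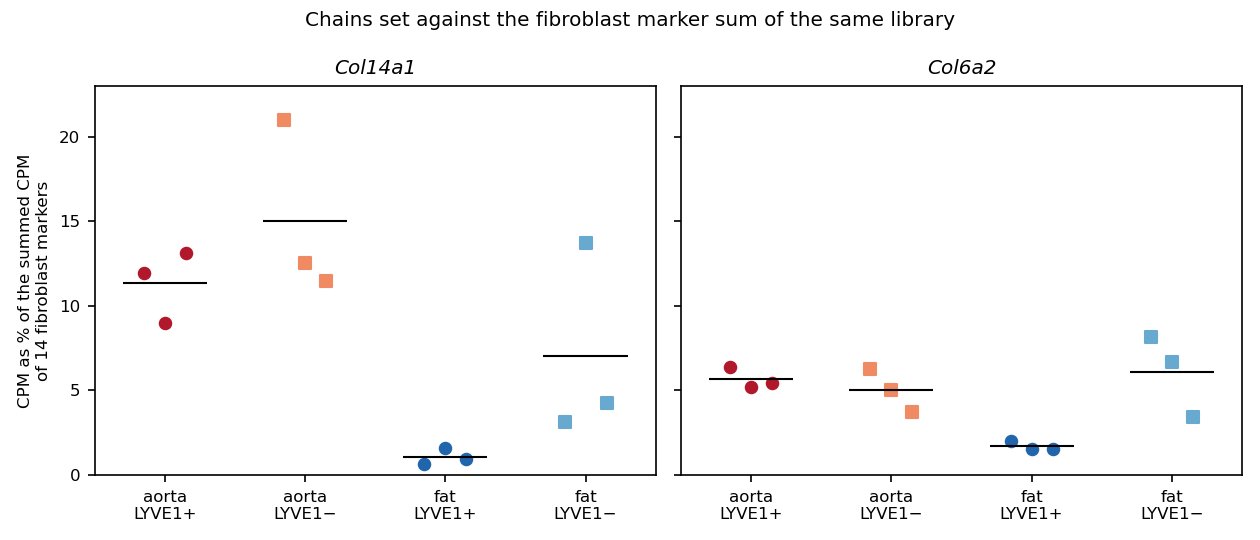
CPM of Col14a1 (left) and Col6a2 (right) as a percentage of the summed CPM of the 14 fibroblast markers in the same library (vertical axis, from 0). Points are libraries and lines are means, for aorta LYVE1+, aorta LYVE1-, fat LYVE1+ and fat LYVE1-. Fat LYVE1+ libraries lie at 0.672% to 1.57% and 1.54% to 2.02%.

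Markers of other cells were summed in the same libraries, and their part in the collagen results was not tested. Over all tested genes 1.88% were called higher and 1.12% lower in aorta LYVE1+ than in fat LYVE1+ libraries. Within LYVE1- libraries these shares were 1.66% and 0.823%. They were 0.113% and 0.429% in the aorta sort and 1.82% and 2.1% in the fat sort. The 10 smooth muscle markers summed to 30.1 to 56.7 CPM in aorta LYVE1+ and 33.1 to 88.5 CPM in aorta LYVE1- libraries, against 11.7 to 28.9 CPM in fat LYVE1+ (Cnn1 and Synpo2 at 0) and 11.6 to 13.7 CPM in fat LYVE1- libraries (Myocd at 0). Of these, 1 was higher in the aorta within LYVE1+ cells and 3 within LYVE1- cells, among them Acta2 (log2 fold change 5.16, edgeR adjusted p = 0.0264). The 7 Schwann cell markers summed to 18.1 to 30.2 CPM in aorta LYVE1+ against 38.9 to 56.8 CPM in aorta LYVE1- ones, and to 15.3 to 41.5 CPM in fat LYVE1+ against 38.6 to 96.2 CPM in fat LYVE1- libraries, with none called. The 7 adipocyte markers stood at 1.96 to 4.06 CPM in aorta LYVE1+ (Lep and Retn at 0) and 5.89 to 8.68 CPM in aorta LYVE1- (Lep at 0), against 23.7 to 83.9 CPM in fat LYVE1+ and 31.0 to 81.9 CPM in fat LYVE1- libraries. Between tissues 3 of the 7 were lower in aorta LYVE1+ (Cfd and Cidec among them) and 2 in aorta LYVE1- libraries (Cfd and Adipoq), with a log2 fold change of -4.29 for Cfd in LYVE1+ cells (edgeR adjusted p = 0.00229). The 7 mesothelial markers reached 0.903 CPM in aorta LYVE1+ (4 of them at 0) and 0.736 CPM in aorta LYVE1- libraries (3 at 0), against 8.97 to 24.0 CPM in fat LYVE1+ and 5.77 to 15.4 CPM in fat LYVE1- libraries, with none called. Pericyte markers (6) reached at most 19.2 CPM and endothelial markers (12) at most 52.7 CPM in any library, with none called. Chondrocyte markers (7) reached at most 4.13 CPM, with Acan, the cartilage proteoglycan, at 0 in all 4 groups. The 6 lymphatic endothelial markers summed to 18.1 to 57.6 CPM in aorta LYVE1+ against 9.53 to 18.5 CPM in aorta LYVE1- libraries. In fat they summed to 3.23 to 15.9 CPM in LYVE1+ against 1.67 to 7.55 CPM in LYVE1- libraries (Flt4, Mmrn1 and Reln at 0). The LYVE1+ and LYVE1- sums overlapped in both tissues. Within these low sums, Prox1 was higher in fat LYVE1+ than in fat LYVE1- libraries (log2 fold change 5.58, edgeR adjusted p = 0.0138). It was also higher in aorta LYVE1- than in fat LYVE1- libraries (edgeR adjusted p = 0.0127). Among leukocyte lists, 2 of 6 eosinophil markers (Prg2 and Ear2) and 1 of 6 dendritic cell markers (Clec9a) were lower in aorta LYVE1+ than in aorta LYVE1- libraries. Between tissues Prg2 was higher in aorta LYVE1- than in fat LYVE1- libraries. Of the 4 tested eosinophil markers, 2 had a positive log2 fold change there. All 6 eosinophil markers summed to 46.0 to 140 CPM in aorta LYVE1- against 133.5 to 353 CPM in fat LYVE1- libraries. In aorta LYVE1+ than in fat LYVE1+ libraries, 1 of 6 neutrophil markers (Retnlg) and 1 of 8 T and NK cell markers (Klrb1c) were lower. Only 2 neutrophil markers were tested, and 1 had a positive log2 fold change there.

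Genes that fold, modify and cut collagen were tested for the same comparisons. Of 31 collagen processing genes, 28 were tested, and none was called in either sort. The most abundant was P4hb, a disulfide isomerase and subunit of prolyl hydroxylase, with medians of 439 CPM in aorta LYVE1+ against 414 CPM in aorta LYVE1- and 472 CPM in fat LYVE1+ against 497 CPM in fat LYVE1- libraries (edgeR adjusted p = 0.822 and 0.722). Between LYVE1+ groups 3 were higher in the aorta: Loxl3 and Lox, which cross-link collagen, and Adamts2, which removes the procollagen end. Over all tested genes 1.88% were called higher in that comparison. Lox had a median of 9.53 CPM in aorta LYVE1+ against 0.867 CPM in fat LYVE1+ libraries (log2 fold change 2.76 ± 0.66, edgeR adjusted p = 0.0425). Between LYVE1- groups 1 was called, Colgalt1, which adds galactose to collagen, at a median of 176 CPM in aorta LYVE1- against 273 CPM in fat LYVE1- libraries (log2 fold change -0.58 ± 0.13, edgeR adjusted p = 0.0341). There 0.823% of all tested genes were called lower.

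Of 21 collagen receptors and genes of collagen uptake and degradation, 17 were tested, and in fat LYVE1+ macrophages 1 was higher and 2 were lower than in fat LYVE1- ones. Over all tested genes 1.82% were called higher and 2.1% lower in that sort. Mmp13, a collagenase, had a median of 3.90 CPM in fat LYVE1+ against 27.6 CPM in fat LYVE1- libraries (log2 fold change -2.99 ± 0.60, edgeR adjusted p = 0.0137). Itga1, a collagen-binding integrin subunit, had no count in the 3 fat LYVE1+ libraries, where 3 counts would be 0.249 to 0.594 CPM, against 0.896 to 3.71 CPM in fat LYVE1- libraries (edgeR adjusted p = 0.0176). Ctsl, a lysosomal protease, was higher (log2 fold change 1.18 ± 0.28, edgeR adjusted p = 0.0326). In the aorta sort none was called. Between LYVE1+ groups 2 were higher in the aorta, Itga1 and Lair1, an inhibitory collagen receptor of leukocytes (log2 fold change 1.36 ± 0.26, edgeR adjusted p = 0.0157), and between LYVE1- groups none was. The share of all tested genes called higher between LYVE1+ groups was 1.88%. The 11 partners of basement membranes were all tested and none was called in any comparison. Sparc, a collagen-binding matrix protein and the most abundant of them, had medians of 199 CPM in aorta LYVE1+ against 71.8 CPM in fat LYVE1+ libraries (log2 fold change 1.10 ± 0.41, edgeR adjusted p = 0.201).

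The positions, on GRCm38 with GENCODE M21 gene models, were chr15:55307750-55520803 for Col14a1, chr10:76595762-76623630 for Col6a2, chr11:94936224-94953042 for Col1a1, chr6:4504814-4541544 for Col1a2 and chr1:82586921-82722059 for Col4a3. The counts are 1 number per gene, so exons and isoforms cannot be told apart in them.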

How the data were processed

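RNA of sorted macrophages (2 ng per library, with spike-in RNA added) was made into full-length cDNA by SMARTSeq v2 and sequenced as pairs of 51 cycles, per the labels' protocols. The deposited values are raw counts per gene, made with STAR 2.5.2b and featureCounts 1.5.0 on GRCm38, as the submitters' processing notes list them. Neither the annotation release nor a strand setting is given in the sources used here. The authors also deposited log2 CPM values (edgeR 3.14.0 is named in the same notes). Those equal edgeR's log2 CPM of the counts (TMM scaling, prior count 0.25) to within 4.97e-14 over 25331 genes, and they were used only for that check.

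Symbols, positions and exon lengths came from GENCODE M21 by Ensembl ID (46005 of 46517 matched), promoters from RefSeq on GRCm38.p6. Counts were fitted with edgeR 4.0.16 (TMM factors, filterByExpr, glmQLFit and glmQLFTest, 4 group means over 12 libraries, 8 residual degrees of freedom), two-sided, with Benjamini-Hochberg adjustment over all 14216 tested genes for each of 5 comparisons, in R 4.3.3. SE is the log2 fold change over the root of F. CPM are TMM-scaled, and RPKM divide them by summed exon length. The procedure was tested on simulated counts in which only more abundant genes were changed, so that test does not cover chains with few counts. The members, the gene lists and the tests were chosen with earlier results of these data known. Values of every library are given for each chain called in any comparison and for the 2 most abundant tested chains of a class, for other lists up to 2 called members or the most abundant one. Chains outside that rule (Col20a1, Col5a3 and those named in counts, with Adamts2, Ctsl and Dcn) were named after their values were seen.

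Replicate numbers in the labels were checked for pairing by the correlation of deviations from the group means. In fat all 3 same-numbered pairs were above 0.1 (0.4855, 0.2792 and 0.1844), and in the other comparisons they were not. Unlike-numbered fat pairs reached similar values, 0.1925 for LYVE1+ 2 with LYVE1- 3 and 0.2245 for LYVE1+ 3 with LYVE1- 2. Both fat libraries numbered 1 stood apart, so the check cannot show whether numbers 2 and 3 pair the libraries. Depth was 5049936 to 29792301 counts per library. The alternatives were DESeq2 1.42.0, its size factors in edgeR, no filter, only the compared groups, the replicate number or the library prefix as a term, and fits without libraries.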

Additional observations from a re-analysis of the deposited data

How the results depend on the processing

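The aorta sort gave 0 collagen calls in the reported fit, under every alternative and without any 1 library. The fat sort gave 2, against 1 with DESeq2 size factors, 1 with only the compared groups in the fit, 1 with the library prefix as a term, 4 with no filter on low counts (Col4a1 and Col4a5 added) and 1 to 3 without 1 library. The difference between tissues in the LYVE1 fold change gave 0, and 1 with no filter. Aorta LYVE1+ over fat LYVE1+ gave 5, against 9 by DESeq2, 10 with no filter, 4 with DESeq2 size factors (Col6a2 lost, adjusted p = 0.0507), 2 with only the compared groups, 3 with the prefix as a term, 9 without both fat libraries numbered 1 and 2 to 6 without 1 library. Aorta LYVE1- over fat LYVE1- gave 3, against 8 by DESeq2, 8 with no filter, 2 with only the compared groups (Col14a1 lost, adjusted p = 0.051), 0 with the prefix as a term, 9 without both fat libraries numbered 1 and 0 to 4 without 1 library. Fits with only the compared groups held fewer samples, and the prefix term used 1 more degree of freedom. The cause of the shifts between fits was not tested.

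With the replicate number as a block the fat sort gave 3 calls, Col4a1 added, and 915 calls over all genes against 558. Whether the numbers pair the fat libraries was not established. In the aorta sort same-numbered libraries had correlations of -0.1701 to -0.0441. The block gave 0 in the aorta sort, 0 for the difference, 4 between LYVE1+ groups (Col4a3 lost, adjusted p = 0.073) and 3 between LYVE1- groups, so it changed no other collagen call.

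Over all genes the aorta sort called 77 (360 by DESeq2, 336 with no filter, 294 with only the compared groups, 243 with the block, 2 with the prefix, 566 without both fat libraries numbered 1). The fat sort called 558 (1005 by DESeq2, 206 with only the compared groups, 887 without that pair). The difference called 22 (103 by DESeq2, 72 with no filter, 0 with the prefix, 84 without the pair), aorta over fat within LYVE1+ 426 (922, 820, 181 and 890, and 243 with only the compared groups) and within LYVE1- 353 (847, 647, 7 and 1024). Without 1 library these ranged over 23 to 210, 219 to 1025, 0 to 47, 172 to 538 and 98 to 531.

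Of the log2 fold changes of the chains given in full, 983 of 1125 kept their direction and side of the threshold, 65 changed sign and were called neither before nor after (adjusted p of at least 0.681), 58 kept the direction and lost the call, and 19 gained one. CPM on plain library sizes moved no group mean beyond its spread (48 of 48). Chains with few counts, such as Col8a1 with 92, could not be resolved at this depth.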
